A study of Mus musculus with 2 samples.

Results

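The 10 genes described here encode the interchangeable subunits of BAF, the mammalian SWI/SNF chromatin remodelling complex, at the positions that are exchanged when neural progenitors become neurons. They were found by gene symbol in the GENCODE M21 annotation of assembly mm10, and each symbol matched a single row, giving 10 of the 55536 genes in the M21 gene tables. Polyadenylated RNA of neural tube from healthy mouse embryos of strain B6NCrl, both sexes pooled, was measured at embryonic day 12.5. The 2 libraries form the only group, and they came from separate pools, 120 embryos for replicate 1 and 88 embryos for replicate 2, so values give the spread over 2 pools and no condition is compared. Each library began with 10 ng of total RNA primed with oligo-dT and cut by tagmentation. The RNA came from pooled tissue, so cells of every type in the dissected tissue were mixed in 1 extract per library.

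BAF uses the energy of ATP to move nucleosomes, and its ATPase is either BRG1 (Smarca4) or BRM (Smarca2). In the complex of dividing neural progenitors the actin-like position is held by BAF53a (Actl6a), the PHD finger position by BAF45a (Phf10) or BAF45d (Dpf2), and a further position by SS18. In postmitotic neurons BAF53a, BAF45a and SS18 give way to BAF53b (Actl6b), BAF45b (Dpf1) or BAF45c (Dpf3), and CREST (Ss18l1). The microRNAs miR-9-3p (also written miR-9*) and miR-124 are known to take part by repressing Actl6a.

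The miR-9 side of this exchange can be read in the sequences, and sites for miR-124 were not searched. The mature miR-9 strands are shown with their seeds, bases 2 to 8, in capitals, because the seed of the 3p strand is the part known to pair with Actl6a. Both were taken from RefSeq (GRCm38.p6), where each strand has the same sequence at 3 loci. The 2 sites that follow are 30-base windows of 3′ UTRs, written as DNA on the transcript strand, with the complement of the miR-9-3p seed in capitals.
mmu-miR-9-3p: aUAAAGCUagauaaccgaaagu
mmu-miR-9-5p: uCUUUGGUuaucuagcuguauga
Actl6a 3′ UTR, chr3:32726628-32726657: ctcaacgtctgtAGCTTTAgtacactcagg
Smarca2 3′ UTR, chr19:26777490-26777519: tcatctagaactAGCTTTAgggtagtgcca

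The 7-base complement AGCTTTA was searched on the transcript strand of the 3′ UTR of each member's leading protein-coding transcript with a complete 3′ end. It occurred once in the 371-base 3′ UTR of Actl6a-201, at bases 38 to 44 after the stop codon, and once in the 951-base 3′ UTR of Smarca2-201, at bases 132 to 138. AGCTTTA was not in the 3′ UTRs searched for the other 8 members. Among 3′ UTRs within 10% of their lengths, the share holding it ran from 0.281% for Phf10 to 22.8% for Ss18l1. Among 922 mouse genes with a 3′ UTR within 10% of the Actl6a length, 2.71% held the same 7 bases, and among 1332 genes near the Smarca2 length 7.06% did. The complement of the miR-9-5p seed, ACCAAAG, was in none of the 10 members' 3′ UTRs. It was in 4.12% of 3′ UTRs near the Actl6a length. Over the members' lengths this share ran from 0.618% for Actl6b to 23.1% for Ss18l1. A match describes the sequence and does not show binding.

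All 10 members were transcribed, from 13.7 to 147 TPM, a transcript abundance scaled for length that allows genes to be compared within a library. Each stood at 1 TPM or more in both libraries, as did 15658 of the 20125 genes with 10 or more counts in either library. Smarca4 and the progenitor subunit Actl6a were highest, and Dpf3 and Phf10 lowest. The neuronal subunits Actl6b and Dpf1 reached levels near that of Ss18. In bulk tissue, fewer cells of a type and less RNA per cell cannot be told apart.

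**Figure D1:**
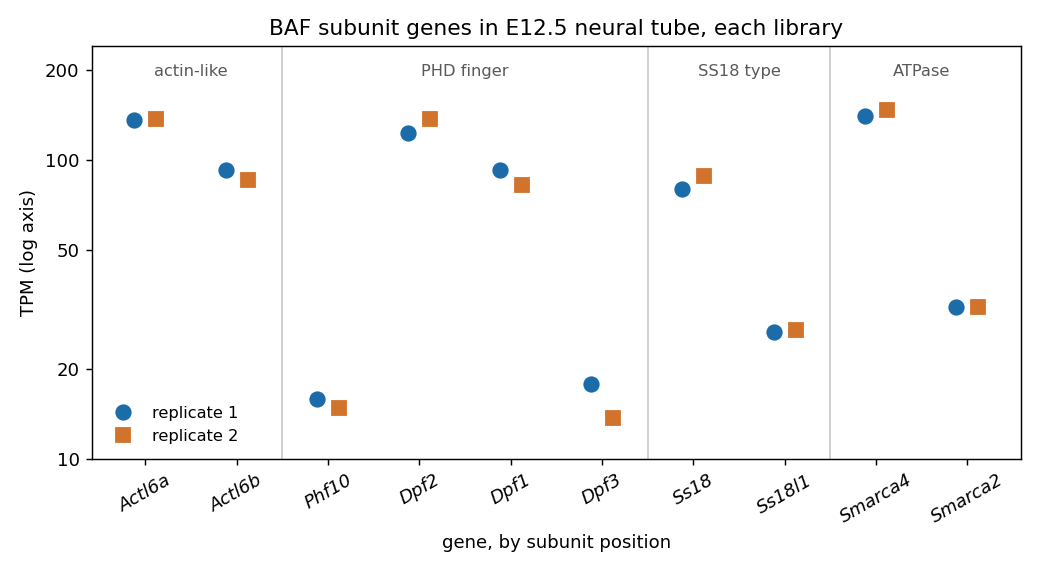
TPM (vertical, log axis) of the 10 BAF subunit genes, grouped by subunit position, with a circle for replicate 1 and a square for replicate 2. Actl6a lies above Actl6b and Ss18 above Ss18l1 in both libraries, whereas Phf10 lies below Dpf1.

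Ordered by mean TPM, Smarca4 was at 143 ± 5.11 (SD, n = 2), Actl6a at 136 ± 0.700, Dpf2 at 129.8 ± 10.5, Actl6b at 89.1 ± 4.61, Dpf1 at 87.3 ± 6.84, Ss18 at 83.7 ± 5.85, Smarca2 at 32.1 ± 0.0071, Ss18l1 at 26.7 ± 0.283, Dpf3 at 15.8 ± 2.89 and Phf10 at 15.3 ± 0.757. Of the 9 neighbouring pairs in this order, 5 had values in the 2 libraries that did not overlap between the genes. Actl6a overlapped with Dpf2, Actl6b with Dpf1, Dpf1 with Ss18, and Dpf3 with Phf10, so these pairs do not differ beyond their spread. The order depended on the transcripts counted. In protein-coding TPM alone Dpf2 moved from rank 3 to rank 6, and Ss18l1 (26.7 TPM) stood above Smarca2 (23.9 TPM). Among 13401 nuclear protein-coding genes at 1 TPM or more in both libraries, Smarca4 was above 92.0% of the others in mean TPM, Actl6a above 91.5%, Actl6b above 85.8%, Ss18l1 above 55.7% and Phf10 above 40.3%.

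At the actin-like position, Actl6a (chr3:32706298-32726973, plus strand) was at 135 TPM in replicate 1 and 136 in replicate 2. Actl6b (chr5:137553517-137569582, plus strand), the neuron-specific paralog, was at 92.3 and 85.8 TPM. Actl6a was higher in both libraries and the values did not overlap. The log2 ratio of Actl6a to Actl6b was 0.55 in replicate 1 and 0.67 in replicate 2, a mean of 0.61 ± 0.08 (SD, n = 2), or 1.53-fold. Actl6b therefore held 39.6% ± 1.36 (SD, n = 2) of the TPM of the pair. With 2 libraries a sign-flip permutation test cannot give a two-sided p below 0.5, so none of the ratios here carries a test.

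At the PHD finger position the progenitor gene was the lower of the exchanged pair. Phf10 (chr17:14945009-14961273, minus strand) was at 15.8 TPM in replicate 1 and 14.7 in replicate 2, and Dpf1 (chr7:29303951-29318243, plus strand) at 92.2 and 82.5. Dpf1 was the higher gene in both libraries. The log2 ratio of Phf10 to Dpf1 was -2.54 and -2.49, a mean of -2.51 ± 0.04 (SD, n = 2), opposite in sign to the ratios at the actin-like and SS18 positions.

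Dpf2 (chr19:5896516-5913010, minus strand), a widely transcribed family member found in progenitor complexes, was at 122 and 137 TPM. It alone held 52.3% ± 4.23 of the summed TPM of Phf10, Dpf1, Dpf2 and Dpf3, which was 248 in either library. Dpf1 held 35.2% ± 2.76, Dpf3 6.35% ± 1.17 and Phf10 6.15% ± 0.305 (SD, n = 2 for each). In protein-coding TPM alone the order at the top changed, with Dpf1 at 46.0% ± 1.63 and Dpf2 at 40.5% ± 1.74 of the family, and the level of Dpf2 was 70.2 ± 0.799 TPM in place of 129.8. Dpf3 (chr12:83213745-83487716, minus strand), known also for its part in heart and skeletal muscle, was at 17.8 and 13.7 TPM. Dpf2 is not confined to progenitor complexes. When it was counted with Phf10, and Dpf3 with Dpf1, the log2 ratio was 0.33 in replicate 1 and 0.66 in replicate 2 (mean 0.49 ± 0.23, SD, n = 2). In protein-coding TPM alone this ratio turned to -0.41 in replicate 1 and -0.18 in replicate 2 (mean -0.29 ± 0.16, SD, n = 2), so its sign depended on the transcripts counted.

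Ss18 (chr18:14624198-14682914, minus strand), the subunit fused to SSX in synovial sarcoma, was at 79.5 and 87.8 TPM. Ss18l1 (chr2:180042509-180070201, plus strand), whose product CREST is a calcium-responsive activator needed for dendrite growth, was at 26.5 and 26.9 TPM. The values did not overlap. The log2 ratio of Ss18 to Ss18l1 was 1.59 and 1.71, a mean of 1.65 ± 0.09 (SD, n = 2), and Ss18l1 held 24.2% ± 1.09 of the pair.

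Of the ATPases, Smarca4 (chr9:21616169-21704230, plus strand) was at 139.5 and 147 TPM and Smarca2 (chr19:26605050-26778322, plus strand) at 32.1 in both libraries. Smarca4, the ATPase that embryonic development requires, was higher by a log2 ratio of 2.12 in replicate 1 and 2.19 in replicate 2 (mean 2.16 ± 0.05, SD, n = 2). Smarca2 held 18.3% ± 0.530 of the TPM of the ATPase pair. For both ATPases the deposited TPM lay outside the interval deposited beside it. That interval was 33.3 to 38.9 TPM for Smarca2 and 133 to 137 TPM for Smarca4 in replicate 1, and its confidence level is not stated. With the posterior mean TPM, a second abundance estimate in the tables, the log2 ratio was 1.94 ± 0.05.

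**Figure D2:**
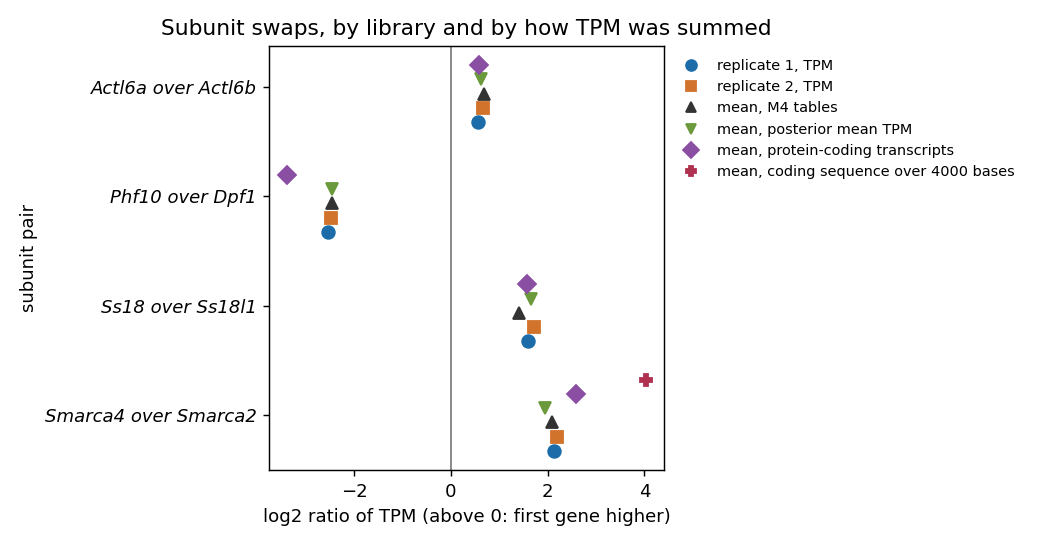
Log2 ratio of TPM (horizontal) for 4 subunit pairs (vertical), for each library and for means over the libraries under other annotations, estimates or transcript sets. Phf10 over Dpf1 lies left of 0 under each setting drawn and the other 3 pairs lie right of 0; restricting Smarca4 and Smarca2 to coding sequences over 4000 bases moves their ratio to 4.03.

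Paralogs can blur such ratios where reads match both genes, so the transcripts were compared. The longest run of identical bases was 23 between any transcript of Actl6a and any of Actl6b, 24 between Ss18 and Ss18l1, 20 between Smarca4 and Smarca2, and 31 between Dpf1 and Dpf3. The deposited effective length is the transcript length less a fragment of 100 bases, plus 1, so each run is shorter than the fragment assumed. The posterior standard deviation of the count, which grows when reads are shared among genes, was 0 in both libraries for Actl6b, Dpf1, Dpf2, Dpf3, Ss18l1 and Smarca2, and 10.4 and 11.6 counts for Actl6a, of 4956 and 5243 counts.

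Some members share exon bases with a gene on the opposite strand, and the labels name no step that keeps strand, so reads there cannot be told apart. Phf10 shares 470 of its 4914 exon bases with 1600012H06Rik, which was at 26.6 and 29.3 TPM, above Phf10 itself. Actl6a shares 452 bases, 11.6% of its exons, with Mrpl47, a mitochondrial ribosomal protein gene at 25.5 and 29.0 TPM. Dpf2 shares 79 bases with the antisense gene Gm42067, at 13.1 and 11.8 TPM. The levels of Phf10 and Actl6a are uncertain to that extent.

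The transcripts behind these levels differed in type. Ss18l1 has a single annotated transcript. The 4 models of Smarca4 and the 7 of Dpf3 are all annotated as protein-coding, so their share of 100% was fixed by the annotation. The protein-coding share was 95.5% and 94.5% for Ss18 in replicates 1 and 2, and on average 91.4% ± 1.05 for Dpf1, 84.5% ± 1.30 for Actl6b, 83.2% ± 1.87 for Actl6a and 74.5% ± 3.24 for Smarca2. Dpf2 and Phf10 had the lowest shares, 54.3% ± 5.01 and 50.7% ± 11.9 (SD, n = 2 for each). As background, the median protein-coding share over 9172 protein-coding genes at 10 TPM or more was 90.1% in replicate 1 and 90.8% in replicate 2, and 16.4% and 15.4% of these genes were under 60%.

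**Figure D3:**
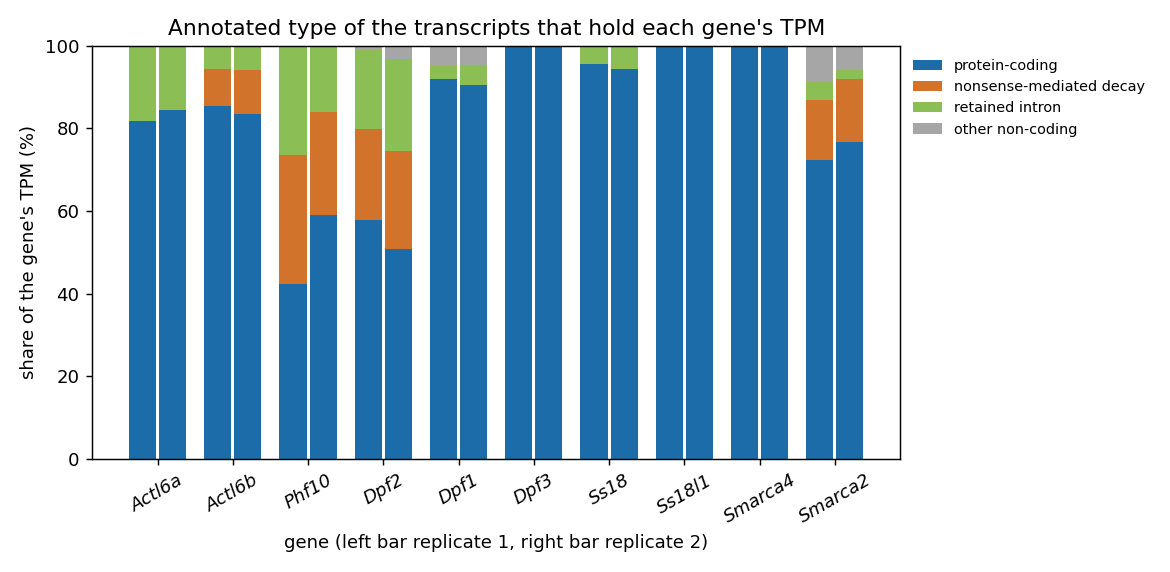
Share of each gene's TPM (percent, bars from 0) in protein-coding, nonsense-mediated decay, retained-intron and other non-coding transcripts, with replicate 1 on the left and replicate 2 on the right of each pair. Phf10 and Dpf2 hold 42.3% to 59.1% in protein-coding transcripts and the libraries differ most for Phf10.

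For Phf10, the protein-coding transcript Phf10-201 held 42.3% of the gene's TPM in replicate 1 and 59.1% in replicate 2. Phf10-203, annotated as a target of nonsense-mediated decay (the pathway that degrades transcripts with an early stop codon), held 31.3% and 24.9%. It lacks a 110-base coding exon, chr17:14954015-14954124, which is not a multiple of 3 and which was included in 57.5% and 70.4% of the TPM of transcripts that span it. The retained-intron transcript Phf10-204 held 22.8% in replicate 1 and was listed at 0 in replicate 2, while Phf10-205, another short retained-intron transcript, held 3.62% and 16.0%. These shares rest on 32.8 and 0 counts for Phf10-204 and 4.09 and 17.4 for Phf10-205. Phf10-201 had 219 and 295 estimated counts and Phf10-203 had 394 and 302, so their order was the reverse in counts. Phf10-203 is 3901 bases long against 1663 for Phf10-201. In protein-coding TPM alone Phf10 was at 7.70 ± 1.43 (SD, n = 2), and its log2 ratio to Dpf1 was -3.38 ± 0.40.

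For Dpf2, the leading transcript Dpf2-202 held 39.5% and 35.6%, the decay-annotated Dpf2-201 22.1% and 23.9%, and the protein-coding but incomplete model Dpf2-210 13.4% and 11.1%. The retained-intron transcripts Dpf2-204 and Dpf2-203 held 8.54% and 5.41% in replicate 1. The higher Dpf2 TPM in replicate 2 went with a shorter effective length, 1875 bases against 1984 in replicate 1, while the gene's estimated counts were 5083 and 5573. A 42-base coding exon, chr19:5903731-5903772, present in Dpf2-202 and absent from Dpf2-201, Dpf2-210 and a minor transcript, was included in 49.4% of the TPM of spanning transcripts in replicate 1 and 47.7% in replicate 2. Its length is a multiple of 3, so both forms keep the reading frame at that point. Its sequence and those of a pair of in-frame coding exons of Dpf1 are shown because they are the stretches of coding sequence by which the transcripts of a single subunit gene differ; all are on the transcript strand.
Dpf2 exon, chr19:5903731-5903772: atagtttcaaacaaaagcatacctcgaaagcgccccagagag
Dpf1 exon, chr7:29311607-29311696: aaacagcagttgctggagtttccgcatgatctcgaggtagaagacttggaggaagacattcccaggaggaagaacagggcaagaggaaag
Dpf1 exon, chr7:29314139-29314189: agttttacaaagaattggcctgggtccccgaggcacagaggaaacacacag

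For Dpf1, the 90-base exon was included in 84.9% and 83.0% of the TPM of transcripts spanning it, and the 51-base exon in 74.2% and 75.8%. Each exclusion value rests on a single partial model, Dpf1-207 with 69.8 and 74.4 counts and Dpf1-209 with 139.7 and 117 counts. They are 428 and 438 bases long. TPM divides by length, so short partial models weigh more in these shares than their reads do. The complete transcript Dpf1-201 held 46.0% and 47.1% of the gene and Dpf1-202, also complete, 10.6% and 9.52%.

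Actl6a and Actl6b each had a dominant complete transcript. Actl6a-201 held 78.7% and 81.9% of the gene and Actl6b-205 77.7% and 77.5%. The leading non-coding transcript of Actl6a, the single-exon retained intron Actl6a-207, held 11.1% and 10.5%, and Actl6b-209, annotated for nonsense-mediated decay, 9.09% and 10.6%. In protein-coding TPM only, the log2 ratio of Actl6a to Actl6b was 0.59 ± 0.14 (SD, n = 2). Ss18-203 held 51.4% and 53.6% of Ss18 and the partial model Ss18-210 30.1% and 29.6%. In the M4 tables, where Ss18-210 has no entry, Ss18-203 held 82.2% and 83.4%. A 93-base in-frame exon of Ss18, chr18:14637392-14637484, was included in 11.4% and 11.9% of the TPM of spanning transcripts, with Ss18-210 among those that exclude it.

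Dpf3 transcripts ended in 3 ways. As background, the gene is known to give a longer protein with a tandem PHD finger, which reads modified histone tails, and a shorter protein without the complete tandem. The models that read on into the downstream exons at the far end of the gene, led by Dpf3-207, held 14.7% of the Dpf3 TPM in replicate 1 and 13.8% in replicate 2. An alternative last exon used by Dpf3-203 and Dpf3-206 held 51.2% and 60.5%, and another, in the partial model Dpf3-202, held 34.2% and 25.7%. The models with an alternative last exon thus held the larger share in both libraries. Estimated counts were low, 166 and 124 for Dpf3-207 and 62.2 and 37.3 for Dpf3-202, and Dpf3-202 is 587 bases long against 3135 for Dpf3-207.

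The point of divergence is shown on the transcript strand, with the last 30 bases of the shared exon (chr12:83272339-83272467) in lower case and the first 45 coding bases of the following exon in capitals.
Dpf3-207, following exon chr12:83226268-83226380: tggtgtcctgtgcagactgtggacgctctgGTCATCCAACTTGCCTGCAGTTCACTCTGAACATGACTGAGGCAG
Dpf3-206, following exon chr12:83269198-83269627: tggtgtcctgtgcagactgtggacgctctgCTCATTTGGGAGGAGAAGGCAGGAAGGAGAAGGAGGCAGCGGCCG
Dpf3-202, following exon chr12:83260493-83260883: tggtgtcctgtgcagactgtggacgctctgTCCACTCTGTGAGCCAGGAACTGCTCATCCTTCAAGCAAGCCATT

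Smarca2 has 46 annotated transcripts, of which 20 were listed at 0 in both libraries and 7 held 5% or more on average. Transcripts that start at the upstream end of the gene held 27.7% of its TPM in replicate 1 and 26.1% in replicate 2, or 8.89 and 8.36 TPM. They include all 3 protein-coding models with a coding sequence over 4000 bases, led by Smarca2-201 at 14.7% and 16.7%, or 23.5% and 26.8% in the M4 tables. Transcripts with a first exon near the far end of the gene held 51.6% and 52.4%, led by Smarca2-203 at 12.4% and 12.3%, or 8.45% and 7.95% with posterior means. In the M4 tables, where 7 of its 22 models have an entry, this group held 30.95% and 36.14%. These models are short, and TPM divides by length. Of the estimated counts, transcripts from the upstream start held 57.2% and 55.2% and those with the far first exon 23.1% and 24.5%, so the order of the groups was the reverse in counts. By contrast, coding sequences over 4000 bases held 98.4% ± 0.357 of Smarca4, or 138 and 144 TPM, led by Smarca4-204 at 72.3% and 71.7% and Smarca4-202 at 26.3% and 26.5%. Restricted to such coding sequences, a comparison chosen after seeing the transcript values, the log2 ratio of Smarca4 to Smarca2 was 4.03 ± 0.11 (SD, n = 2) in place of 2.16.

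**Figure D4:**
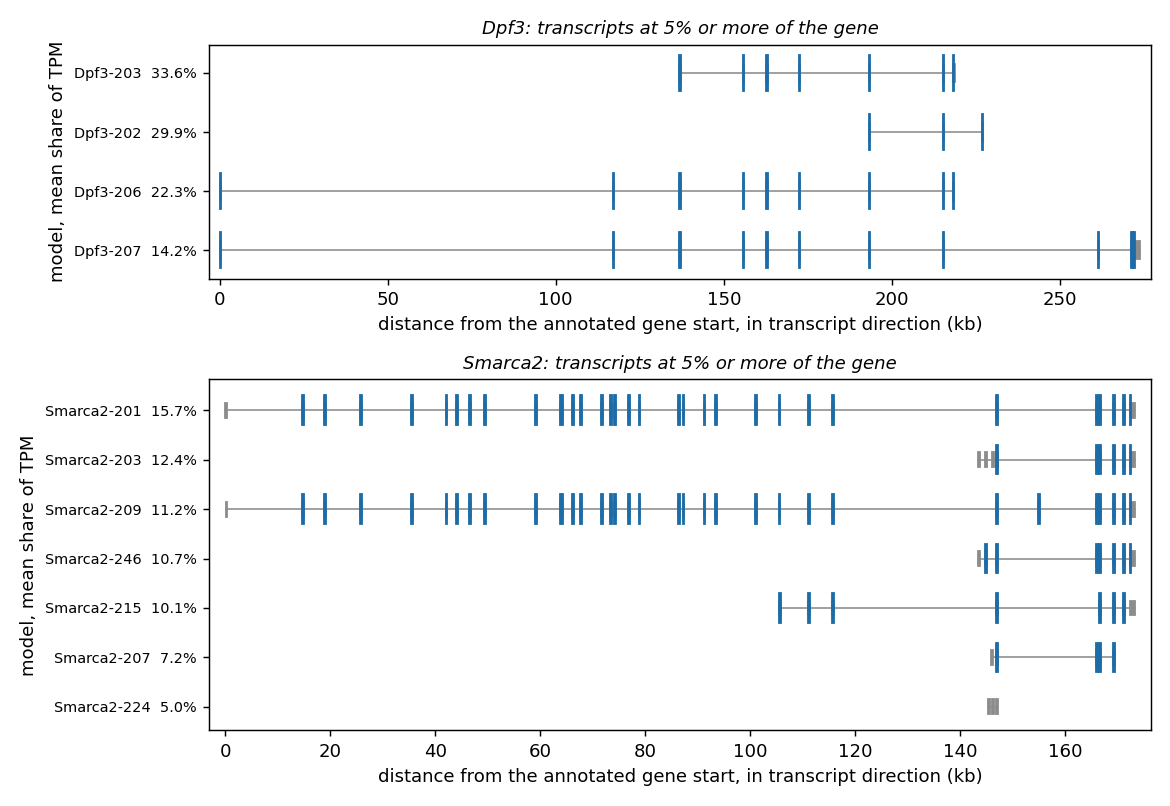
Exon positions (horizontal, kb from the annotated gene start in transcript direction; coding parts blue and taller, non-coding parts grey; exons under 0.35 kb are drawn 0.35 kb wide) of Dpf3 and Smarca2 transcripts at 5% or more of their gene, with the mean share beside each name. Only Dpf3-207 reaches the last exons of Dpf3 among the models drawn, and Smarca2-203, Smarca2-207, Smarca2-224 and Smarca2-246 begin at 143 kb or beyond.

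A 54-base coding exon of Smarca2 near its 3′ end, a multiple of 3 in length, separated the complete models Smarca2-201, which lacks it, and Smarca2-209, which has it. It was included in 20.4% of the TPM of spanning transcripts in replicate 1 and 17.2% in replicate 2. Among the protein-coding models with a coding sequence over 4000 bases alone it was included in 41.6% ± 7.87 (SD, n = 2). Smarca2-209 held 13.1% and 9.38% of the gene in M21 but 3.37% and 0% in the M4 tables, so the inclusion depends on the annotation release. The exon is shown as the stretch by which the full-length coding sequences differ.
Smarca2 exon, chr19:26759878-26759931: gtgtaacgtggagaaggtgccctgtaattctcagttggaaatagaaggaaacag

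Known regulators of the exchange were also transcribed. Rest, a repressor of neuronal genes and of the microRNA genes named above, was at 16.2 and 14.9 TPM. The host transcripts of miR-124 were at 80.3 and 78.4 TPM for Mir124a-1hg and 89.2 and 89.5 TPM for Mir124-2hg. Mir9-3hg was at 95.2 and 101 TPM and C130071C03Rik, whose span holds Mir9-2, at 50.7 and 46.7. These are polyadenylated host RNAs, and mature microRNAs were not measured. Ptbp2, the neuronal paralog of the splicing repressor Ptbp1, was at 233 and 249 TPM, and Ptbp1 at 141 and 149. The log2 ratio of Ptbp2 to Ptbp1 was 0.73 ± 0.01 (SD, n = 2). Hence the neuronal gene was the higher of the Ptbp pair and of Phf10 and Dpf1, and the lower of the Actl6 and Ss18 pairs.

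Of the other core BAF genes all 11 stood at 1 TPM or more in both libraries, as did 15658 of the 20125 genes tested. Apart from Actb, which is also cytoskeletal actin, they ran from Smarcd2 at 30.1 and 32.1 TPM to Smarce1 at 265 and 274. Smarcc1 and Smarcc2, the scaffold paralogs, held 50.5% ± 1.65 and 49.5% ± 1.65 of their pair. Among the Smarcd genes, Smarcd1 held 53.3% ± 1.97 and Smarcd3, known for heart development, 32.0% ± 1.64. All 10 genes specific to a form of the complex (BAF, PBAF or ncBAF) were also at 1 TPM or more. Pbrm1, which defines PBAF, the form in which Phf10 is known to reside, was at 140.5 and 145 TPM. In the same list Arid2 was at 25.4 and 25.3 TPM and Brd7 at 69.55 and 80.75. The level of a single gene therefore does not rank the forms. Arid1a, which defines canonical BAF, was at 33.2 and 32.3 TPM, with a log2 ratio to Arid1b of 1.16 ± 0.04 (SD, n = 2).

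Markers of progenitors, neurons and other cells were detected in the dissected tissue. Of all 20125 genes tested, 15658 stood at 1 TPM or more in both libraries, so counts at that level alone do not show which cells were present. All 11 neural progenitor markers (Sox2 at 38.9 and 37.9 TPM), all 6 proliferation markers and all 12 neuron markers (Tubb3 at 953 and 982 TPM) stood at 1 TPM or more. So did 9 of 9 skeletal muscle, 7 of 7 sensory ganglion, 7 of 7 mesenchyme, 6 of 6 erythroid, 7 of 7 endothelium and macrophage, and 6 of 8 heart markers, and the part of such cells in the members' levels was not tested. Their summed TPM was 451 and 328 for muscle, 288 and 418 for sensory ganglion, 843 and 867 for mesenchyme, 6859 and 6804 for erythroid cells, 139.6 and 146 for endothelium and macrophages, and 41.8 and 28.1 for heart.

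Between the 2 libraries, Ss18 was higher in replicate 2 and the neuronal subunits Actl6b, Dpf1 and Dpf3 were lower. This compares the libraries, not conditions, with an exact binomial test, two-sided, of estimated counts at TMM-scaled library sizes and Benjamini-Hochberg adjustment over 20125 genes, and it covers counting error only. By that test 4 of the 10 members were called, against 20.3% of all genes tested: 1 of 10 higher against 10.5%, and 3 of 10 lower against 9.78%. Calls are more frequent among abundant genes, 1856 higher and 1492 lower of 13399 protein-coding genes at 1 TPM or more. With ERCC or TPM scaling 3 of 10 members were called higher and 2 of 10, Dpf1 and Dpf3, lower. Over all 20125 genes tested, ERCC sizes called 3891 higher and 1171 lower, and the TPM scale 3296 and 1341. With TMM sizes the median log2 difference was -0.05 over the members and -0.00093 over all genes tested.

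Dpf1 had 2836 estimated counts in replicate 1 and 2621 in replicate 2, and fell by 0.20 on the log2 scale (exact binomial test, adjusted p = 5.34e-06). Actl6b, with 2641 and 2556 counts, fell by 0.14 (adjusted p = 0.00594, exact binomial test), but was not called with sizes from ERCC spike-ins (adjusted p = 0.13) or on the TPM scale (adjusted p = 0.066). Dpf3, with 457 and 377 counts, fell by 0.36 (adjusted p = 0.0028, exact binomial test). Ss18, with 4287 and 4902 counts, rose by 0.10 (adjusted p = 0.0051, exact binomial test). The fourth neuronal subunit, Ss18l1, had 2354 and 2472 counts and a difference of -0.02, which turned to 0.04 with ERCC sizes and 0.02 on the TPM scale, and was not called under any of the 3. On both of those scales Dpf2 and Smarca4 were called higher in replicate 2.

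edgeR's exact test with the common dispersion of the same 2 libraries, a biological coefficient of variation of 7.36%, called none of the 10 members and 1.13% of all genes. Under it the lowest adjusted p among members was 0.60, for Dpf3, and 1 member had an unadjusted p under 0.05. That dispersion takes the whole difference between the libraries as spread between replicates. With TMM sizes the called differences were larger than counting error, with PCR copies counted as reads. That of Actl6b was not called with ERCC sizes or on the TPM scale. None was called against the spread between these pools, which was itself estimated from their difference.

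**Figure D5:**
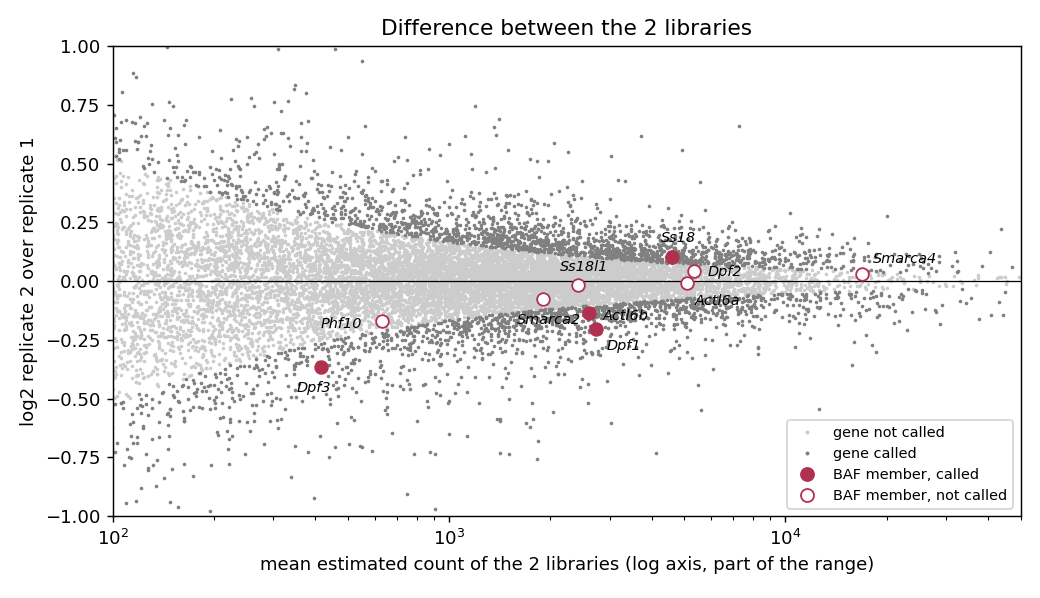
Log2 difference of replicate 2 over replicate 1 (vertical, cropped at -1 and 1) against mean estimated count (horizontal, log axis, cropped) for the genes tested, dark grey where called by the exact binomial test, with the 10 members as circles, filled where called. Ss18 lies above 0 and Actl6b, Dpf1 and Dpf3 below, within the cloud of genes called.

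The lists of cell markers were chosen with earlier results of these data known, so their counts only describe these libraries. Some lists differed between the same libraries and others little. All 9 skeletal muscle markers were lower in replicate 2 (median log2 difference -0.42), 4 of 7 tested heart markers were lower and none higher (median -0.54), and 6 of 7 sensory ganglion markers were higher and none lower (median 0.56) by the exact binomial test. Of the 7 mesenchyme markers 1 was lower (median -0.05), of the 6 erythroid markers 1 was lower (median -0.0032), and of the 7 endothelium and macrophage markers 2 were higher (median 0.07). Of the 12 neuron markers 7 were higher and 1 lower (median 0.10), against 10.5% higher and 9.78% lower over all genes tested. Of the 11 progenitor markers 2 were higher and 3 lower. The part of these differences in those of the members was not tested.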

How the data were processed

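Per the labels and the notes deposited with each library, polyadenylated RNA of 2 neural tube pools was aligned to the transcriptome on mm10 and quantified against GENCODE M21 and, separately, M4. The aligner and the quantifier were not given in the sources used here. The deposited tables, per the file headers, hold estimated counts (reads shared out among matching features), TPM, posterior mean TPM with interval bounds, and, for a transcript, the percent it makes up of the TPM of its gene. Library totals were 33529531 and 35461403 estimated counts, of which 2.99% and 2.89% were ERCC spike-ins.

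Levels are TPM as deposited, from M21, with no pseudocount and no filter. Ratios were formed within a library. Shares of exons and transcript groups are sums of transcript TPM over GENCODE M21 models. Exon, junction and 3′ UTR sequences were read from the GENCODE M21 transcripts. For the difference between libraries, estimated counts were rounded, genes with 10 or more counts in either library kept, sizes scaled by TMM (edgeR 4.0.16, R 4.3.3; DESeq2 1.42.0 size factors as an alternative), log2 ratios computed with a prior count of 2, and calls made at an adjusted p of 0.05. On counts simulated for the library comparison (20009 genes tested), it called 96.5% of 200 genes changed 2-fold and 0.0303% of the unchanged. The simulated counts held Poisson counting error only, with no spread between pools, and genes of low count were not among those changed. These rates therefore do not give the share of false calls between real pools. PCR copies were counted as reads, since the labels name no molecular identifiers. Tables were read with Python 3.11.15, pandas 2.3.3 and numpy 2.4.6, and drawn with matplotlib 3.10.9.

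The members and lists were chosen with earlier results of these data known. Named are the members, the listed genes, genes overlapping a member, most member transcripts with a mean share of 5% or more, and each member's leading non-coding transcript. No gene is named for likeness of pattern, since 2 libraries of 1 group hold none.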

Additional observations from a re-analysis of the deposited data

How the results depend on the processing

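Each of the 4 ratios of single subunits kept its sign under each alternative tried. With M4 tables the log2 ratio was -2.46 for Phf10 over Dpf1, 1.40 for Ss18 over Ss18l1 and 2.10 for Smarca4 over Smarca2, and with posterior mean TPM it was -2.46 for Phf10 over Dpf1 and 1.94 for Smarca4 over Smarca2. With protein-coding transcripts only it was -3.38 for Phf10 over Dpf1 and 2.58 for Smarca4 over Smarca2, and 4.03 for the latter with coding sequences over 4000 bases, an alternative chosen after seeing the data. With estimated counts, which are not divided by length, it was 0.97 for Actl6a over Actl6b, -2.11 for Phf10 over Dpf1, 0.93 for Ss18 over Ss18l1 and 3.15 for Smarca4 over Smarca2. Phf10 plus Dpf2 over Dpf1 plus Dpf3, with alternatives added after seeing the data, turned from 0.49 to -0.29 with protein-coding transcripts only, was 0.92 with estimated counts, and 0.33 to 0.66 leaving out a library. Leaving out a library gave 0.55 to 0.67, -2.54 to -2.49, 1.59 to 1.71 and 2.12 to 2.19 for these 4 pairs in turn. All 10 members passed 0.5, 1 and 5 TPM. Of the members, 4 were called between the libraries and 0 by edgeR's exact test with common dispersion, which called 227 genes against 4080 (1 member at an unadjusted p under 0.05). ERCC sizes moved the median of all genes by 0.06 and gave 3891 genes higher and 1171 lower, and the TPM scale gave 3296 and 1341, against 2112 and 1968; Actl6a then turned from -0.0079 to 0.048 and 0.032, and Ss18l1 from -0.02 to 0.037 and 0.022, none of them called. No paired analysis was possible because the 2 libraries form a single group. Low counts limit the transcript shares of Phf10, Dpf3 and Smarca2. The cause of these moves was not tested.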
